A study of Mus musculus with 6 samples.

Results

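The heat-shock genes described here are 10 genes of the mouse stress chaperone system, taken as a fixed list of symbols and matched to Entrez gene IDs. All 10 were found among the 27179 gene IDs of the count files. Hspa1a, Hspa1b, Dnajb1, Hsph1, Hsp90aa1 and Hspb1 are grouped as inducible, Hspa8 and Hsp90ab1 as constitutive, Hspd1 as mitochondrial and Hsf1 as the regulator. Hspd1 and Hsf1 are thus not cytosolic heat-shock proteins, although they belong to the same response. RNA-seq was made from satellite cells, which are muscle stem cells, sorted from muscle of WT mice of the C57Bl/6N strain, fed either a high-fat diet (HFD, 3 libraries) or chow (3 libraries). The question of the series was how satellite cells of obese and lean mice differ. All 6 libraries share the strain, the genotype and a flow-cytometric sort of at least 50000 cells per replicate. No label gives the sex, the age, the time on the diet or whether the 3 replicates were separate animals, so p-values speak to the spread among these 6 libraries, part of which may be technical.

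Cells answer misfolded protein with heat-shock factor 1, the product of Hsf1, which is held inactive by chaperones and, once freed, binds repeats of the short motif nGAAn upstream of its targets. The Hsp70 proteins (Hspa genes) hold unfolded segments, J-domain proteins such as Dnajb1 start their ATP cycle, Hsp110 (Hsph1) lets them exchange ADP for ATP, Hsp90 proteins finish the folding of kinases and receptors, and small heat-shock proteins such as Hspb1 keep aggregates in solution. Hspa1a and Hspa1b are low in most unstressed cells and strongly inducible, whereas Hspa8 and Hsp90ab1 are made all the time. Isolation of satellite cells from muscle is itself known to induce stress genes.

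Hspa1a and Hspa1b are near-identical neighbours on chromosome 17 of GRCm38 (34969359 to 34972156 and 34956429 to 34959238). Their upstream sequences are shown because the pair had the highest levels per length of the 10 genes in chow libraries, and because the 2 genes can hardly be told apart by short reads. The windows are the 250 bases before the RefSeq start, minus strand, at chr17:34972157-34972406 for Hspa1a and chr17:34959239-34959488 for Hspa1b, GRCm38.p6. Capitals mark heat-shock units facing each other, GAANNTTC or TTCNNGAA, each of which reads the same pattern on both strands.
Hspa1a: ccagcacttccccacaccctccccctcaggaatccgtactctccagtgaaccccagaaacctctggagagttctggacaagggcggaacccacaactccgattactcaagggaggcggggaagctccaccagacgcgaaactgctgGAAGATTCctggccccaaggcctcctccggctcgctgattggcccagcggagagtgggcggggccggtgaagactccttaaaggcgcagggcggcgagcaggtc
Hspa1b: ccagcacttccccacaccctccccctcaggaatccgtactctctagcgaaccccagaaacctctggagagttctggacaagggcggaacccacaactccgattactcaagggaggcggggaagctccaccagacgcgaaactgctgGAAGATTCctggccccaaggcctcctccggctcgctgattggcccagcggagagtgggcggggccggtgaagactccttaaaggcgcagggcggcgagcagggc
The windows agreed at 247 of 250 positions, and the element began 104 bases before the start in both.

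RefSeq windows were matched for 6 of the 10 genes. Hspb1, another inducible gene, is shown for comparison at chr5:135887669-135887918, plus strand, with 2 such elements.
Hspb1: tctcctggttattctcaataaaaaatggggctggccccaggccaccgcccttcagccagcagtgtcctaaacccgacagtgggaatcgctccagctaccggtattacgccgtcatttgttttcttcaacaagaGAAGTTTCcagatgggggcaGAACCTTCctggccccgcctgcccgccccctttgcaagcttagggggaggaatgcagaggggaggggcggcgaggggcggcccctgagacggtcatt
Shorter stretches of 30 bases show the elements of Hsph1 (chr5:149636346-149636375, minus strand) and of Hspd1 (chr1:55088053-55088082, minus strand, inside the gene and before its second annotated start).
Hsph1: gaatctTTCTCGAAggctcgagaagaagga
Hspd1: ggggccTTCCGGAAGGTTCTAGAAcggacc
A full run of 3 alternating units (GAA, TTC, GAA, each 2 bases apart, read on either strand) was found in Hspd1 alone among the 6 genes. In all, 5 of the 6 genes had a paired element in at least 1 window, against 14.5% of 27025 genes, and 1 had the run of 3 units, against 0.514% of genes. No Dnajb1 window held either form. These are matches of letters, and absence from a window says nothing of factors that bind elsewhere.

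Read sharing sets how far single genes can be read. Of the 75-base windows of the longest coding transcript of Hspa1a, 52.7% also occurred in Hspa1b, and of those of Hspa1b 55.8% occurred in Hspa1a. For Hspa8, 68.6% of windows also lay in transcripts of other genes, mostly pseudogenes, for Hsp90aa1 53.1%, for Hspb1 47.3% and for Hspd1 33.7%. Hsp90ab1 shared 0.736%, and Dnajb1, Hsph1 and Hsf1 shared 0. The sources used here do not say how such reads were counted, so levels of Hspa1a, Hspa1b, Hspa8, Hsp90aa1, Hspb1 and Hspd1 are uncertain. Hspd1 also overlaps its neighbour Hspe1, and Hspa8 holds 3 small nucleolar RNA genes.

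Library totals ran from 14930394 to 18217818 counts, and transcripts of the mitochondrial genome took 7.72% to 10.5% of counts on HFD and 8.13% to 8.46% on chow. Levels are given as CPM (counts per 1000000 counts of the library, after TMM scaling between libraries). All 9 listed markers of satellite cells were counted in every library. They summed to 4067 to 5169 CPM on HFD and 4745 to 5428 CPM on chow. Sdc4 gave the largest part of this sum, at 1480 to 2567 CPM over the libraries. Summed markers of endothelial cells ran from 226 to 338 CPM on HFD and from 231 to 314 CPM on chow, those of fibro-adipogenic cells from 413 to 651 CPM on HFD and from 507 to 545 CPM on chow, and those of mural cells from 67.9 to 158 CPM on HFD and from 103 to 184 CPM on chow. Summed immune markers were at 7.77 to 29.5 CPM on HFD and 21.6 to 49.7 CPM on chow, with Adgre1 and Cd3e at 0 in all 6 libraries. Myofibre markers were at 9.85 to 20.3 CPM on HFD and 18.9 to 32.3 CPM on chow, and glial markers at 1.11 to 18.3 CPM on HFD and 5.90 to 36.3 CPM on chow. The diets overlapped in each of these 7 sums, whose part in the results below was not tested. Single markers inside the sums could still separate. The endothelial Kdr lay higher on HFD without overlap (log2 fold change 1.41, edgeR adjusted p = 0.442). The myofibre Tnnt3 lay lower without overlap (log2 fold change -1.67, edgeR adjusted p = 0.765). Of the 9 satellite markers 0 passed in edgeR, and 2 had no overlap between the diets, in opposite directions. Of all 13202 genes tested, 1039 lay lower and 979 higher on HFD without overlap. Of the 1681 genes at a mean of at least 100 CPM, 217 lay lower and 253 higher without overlap. Pax7 had a log2 fold change of -0.78 (adjusted p = 0.180 in edgeR, 0.0123 in DESeq2 and 0.0281 in limma-voom), and Itga7 one of 0.59 (adjusted p = 0.328 in edgeR, 0.106 in DESeq2 and 0.157 in limma-voom). The other 7 satellite markers lay between -0.70 (Myod1) and 0.29 (Vcam1). In bulk libraries fewer cells of a type and less RNA per cell cannot be told apart. HFD library 1 and chow library 3 lay farthest apart on the main axis of variation, so key values are also given without them.

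Of the 6 inducible genes, the Hsp70 genes Hspa1a and Hspa1b and the J-domain gene Dnajb1 had lower levels in every HFD library than in any chow library, with fitted means 2.41-fold, 2.39-fold and 3.01-fold lower. Values without overlap that were lower on HFD were found in 7.87% of all genes tested. They were found in 217 of the 1681 genes at a mean of at least 100 CPM, a level that all of the 10 genes but Hsf1 reached. The other 7 genes, including the inducible Hsp70 partner Hsph1 and the constitutive Hspa8 and Hsp90ab1, overlapped between the diets and had log2 fold changes from -0.18 to 0.14. None of the 10 genes passed an adjusted p of 0.05 in edgeR's quasi-likelihood test over 13202 genes, where 0.258% of genes passed. At an unadjusted p under 0.05, 3 of the 10 were lower and 0 higher on HFD, against 3.95% lower and 3.7% higher among all genes tested. Among the 1681 genes of at least 100 CPM, 183 were lower and 187 higher. DESeq2 called 1 of the 10 (1.51% of all genes) and limma-voom called 3 (0.75% of all genes). Of the 1681 genes of at least 100 CPM, DESeq2 called 98 and limma-voom 82. Hspa1a and Hspa1b are counted separately in these numbers but share much of their sequence, so they are not independent.

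Hspa1a encodes the main stress-inducible Hsp70. It was at 941, 2572 and 2310 CPM in HFD libraries 1 to 3, and at 3222, 4843 and 5967 CPM in chow libraries 1 to 3. The diets did not overlap, and HFD library 1 lay well below the other 5. The mean was 1941 ± 876 CPM on HFD and 4677 ± 1380 CPM on chow (SD, n = 3 each), a log2 fold change of -1.27 (SE 0.30, 95% interval -1.91 to -0.63, edgeR adjusted p = 0.148).

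Hspa1b encodes an almost identical Hsp70 protein. Its levels were 1076, 2839 and 2531 CPM in HFD libraries 1 to 3 and 3422, 5135 and 6833 CPM in chow libraries 1 to 3. The order of the libraries was that of Hspa1a. The log2 fold change was -1.26 (SE 0.30, edgeR adjusted p = 0.159). Hspa1a took between 46.6% and 48.5% of the counts of the pair in each of the 6 libraries. With both genes summed into 1 feature before the fit, the log2 fold change was -1.26 (SE 0.29, edgeR adjusted p = 0.145).

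Dnajb1 encodes the J-domain protein Hsp40, which delivers clients to Hsp70, and lies on chromosome 8 (83608175 to 83612653). It was at 100, 179 and 231 CPM in HFD libraries 1 to 3, against 303, 524 and 710 CPM in chow libraries 1 to 3. Again every HFD library lay below every chow library. The mean was 170 ± 65.9 CPM on HFD and 513 ± 204 CPM on chow (SD, n = 3 each), and the log2 fold change was -1.59 (SE 0.31, 95% interval -2.27 to -0.92, edgeR adjusted p = 0.0592), the 40th smallest p of all genes. Dnajb1 shares no read-length window with another gene, so its value does not rest on the split of reads between copies.

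These 3 values depended on the model and on single libraries. Dnajb1 passed in DESeq2 (adjusted p = 0.0410) and limma-voom (adjusted p = 0.00278), and in edgeR without HFD library 3 (adjusted p = 0.0239) or without chow library 1 (adjusted p = 0.0308). Hspa1a and Hspa1b passed in limma-voom (adjusted p = 0.00105 and 0.00180) but not in DESeq2 (adjusted p = 0.160 and 0.183). Without HFD library 1 the log2 fold changes of Hspa1a, Hspa1b and Dnajb1 were -0.93, -0.92 and -1.31, and without both libraries that lay farthest apart they were -0.71, -0.66 and -1.004, with edgeR adjusted p of 0.456, 0.506 and 0.456. The sign was negative in every alternative run for these 3 genes. This follows largely from the lack of overlap between the diets and is no separate support.

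**Figure D1:**
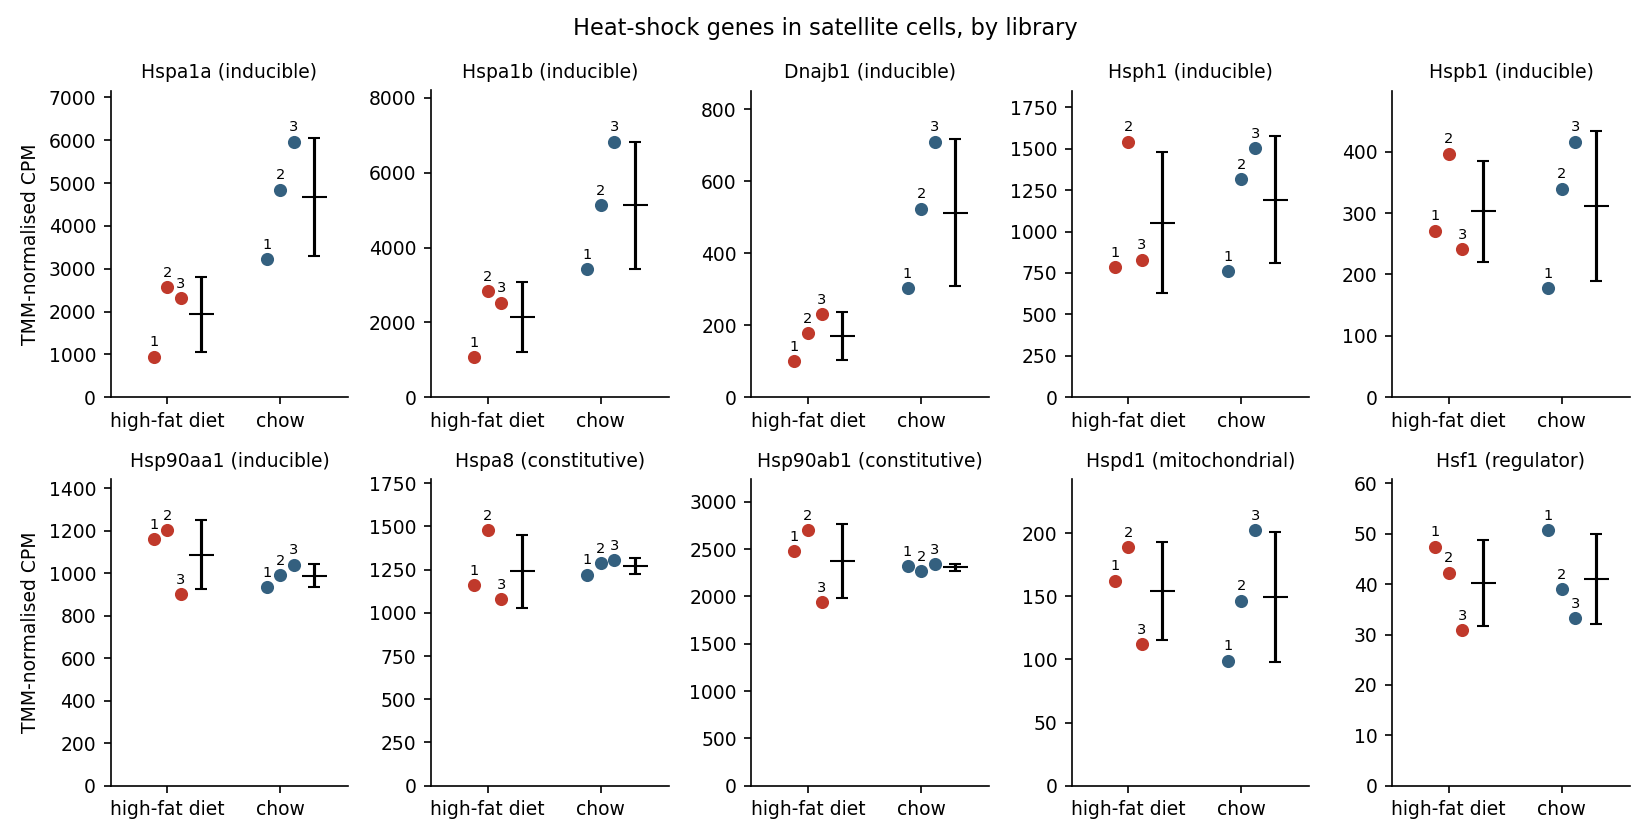
TMM-normalised CPM of the 10 heat-shock genes in each library, with HFD libraries left of chow libraries and the replicate number above each point. Black marks give the mean and SD of 3 libraries. Hspa1a, Hspa1b and Dnajb1 do not overlap between the diets, and the other 7 genes do.

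The other inducible genes did not share this separation. Hsph1, the Hsp110 nucleotide exchange factor of Hsp70 on chromosome 5 (149616843 to 149636498), was at 786, 1543 and 830 CPM in HFD libraries 1 to 3 and at 762, 1315 and 1502 CPM in chow libraries 1 to 3. HFD library 2 was the highest of all 6 and chow library 1 the lowest. The log2 fold change was -0.18 (SE 0.27, 95% interval -0.75 to 0.39, edgeR adjusted p = 0.990).

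Hspb1, the small heat-shock protein Hsp25 (chromosome 5, 135887919 to 135889563), was at 271, 396 and 241 CPM in HFD libraries 1 to 3 and at 178, 340 and 416 CPM in chow libraries 1 to 3. The chow libraries spanned the whole range of the HFD libraries. The log2 fold change was -0.04 (SE 0.27, 95% interval -0.63 to 0.55, edgeR adjusted p = 1.00), and its sign turned with the library left out.

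Hsp90aa1 encodes the inducible cytosolic Hsp90 (chromosome 12, 110691036 to 110696395). It was at 1159, 1203 and 900 CPM in HFD libraries 1 to 3, against 933, 990 and 1040 CPM in chow libraries 1 to 3. HFD libraries 1 and 2 lay above all chow libraries and library 3 below them. The log2 fold change was 0.14 (SE 0.15, edgeR adjusted p = 0.961), with a 95% interval of -0.18 to 0.46, or 0.880-fold to 1.38-fold, which does not reach the value fitted for Hspa1a.

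The constitutive genes were held within narrow limits in the chow libraries. Hspa8, the cognate Hsp70 Hsc70 that also uncoats clathrin vesicles (chromosome 9, 40801276 to 40805202), was at 1161, 1479 and 1079 CPM in HFD libraries 1 to 3 and at 1221, 1289 and 1304 CPM in chow libraries 1 to 3. The HFD libraries lay on both sides of the chow libraries, and the log2 fold change was -0.04 (SE 0.15, 95% interval -0.36 to 0.28, edgeR adjusted p = 1.00). Hsp90ab1, the constitutive Hsp90 (chromosome 17, 45567778 to 45573261), was at 2477, 2702 and 1942 CPM in HFD libraries 1 to 3 and at 2317, 2265 and 2338 CPM in chow libraries 1 to 3. Its log2 fold change was 0.04 (SE 0.14, 95% interval -0.26 to 0.34, edgeR adjusted p = 1.00). The intervals allow folds from 0.782 to 1.22 for Hspa8 and from 0.834 to 1.27 for Hsp90ab1.

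Hspd1, the mitochondrial chaperonin Hsp60 (chromosome 1, 55077833 to 55088243), was at 162, 189 and 112 CPM in HFD libraries 1 to 3 and at 99.0, 147 and 202 CPM in chow libraries 1 to 3. Its diets overlapped throughout, with a log2 fold change of 0.05 (SE 0.27, edgeR adjusted p = 1.00). Hsf1, the master regulator (chromosome 15, 76477362 to 76501155), was at 47.5, 42.3 and 30.9 CPM in HFD libraries 1 to 3 and at 50.7, 38.9 and 33.2 CPM in chow libraries 1 to 3. Its means of 40.2 ± 8.50 CPM on HFD and 41.0 ± 8.92 CPM on chow (SD, n = 3 each) differed by far less than either spread (log2 fold change -0.03, SE 0.34, edgeR adjusted p = 1.00). The activity of Hsf1 is set mostly on the protein, which transcript counts do not measure.

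**Figure D2:**
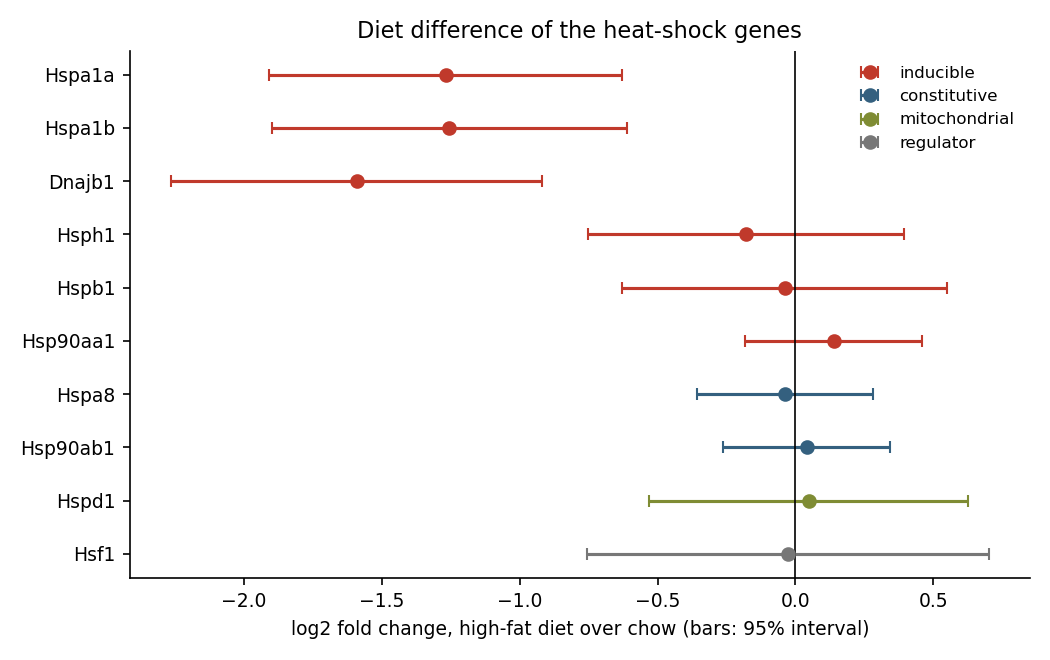
Log2 fold change of each gene, HFD over chow, from edgeR's quasi-likelihood fit, with 95% intervals, coloured by class. The intervals of Hspa1a, Hspa1b and Dnajb1 lie below 0, and those of the other 7 genes include 0.

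Inducible genes were compared with their constitutive partners within each library, where the scaling between libraries plays no part. Hspa1a and Hspa1b together had 1.74, 3.66 and 4.49 counts per count of Hspa8 in HFD libraries 1 to 3, against 5.44, 7.74 and 9.82 in chow libraries 1 to 3. The log2 ratio averaged 1.61 ± 0.72 on HFD and 2.90 ± 0.43 on chow (SD, n = 3 each), a difference of -1.29. All 3 ratios of HFD lay below those of chow, which in an exact permutation test over the libraries gives p = 0.1, two-sided, the smallest that 3 against 3 allows and above 0.05 by design. Without HFD library 1 the difference was -0.88.

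The Hsp90 pair gave another picture. Hsp90aa1 had 0.468, 0.445 and 0.463 counts per count of Hsp90ab1 in HFD libraries 1 to 3, and 0.403, 0.437 and 0.445 in chow libraries 1 to 3. The log2 ratio was -1.12 ± 0.04 on HFD and -1.22 ± 0.08 on chow (SD, n = 3 each), a difference of 0.10, or 1.07-fold. The groups touched but did not overlap (exact permutation p = 0.1, two-sided, also the smallest possible). After adjustment over the 2 ratios both p remained 0.1. The mean Hsp70 ratio was thus lower on HFD and the mean Hsp90 ratio slightly higher, with 0.445 in both HFD library 2 and chow library 3 for Hsp90. The Hsp90 ratio also carries the uncertainty of the shared reads of Hsp90aa1.

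**Figure D3:**
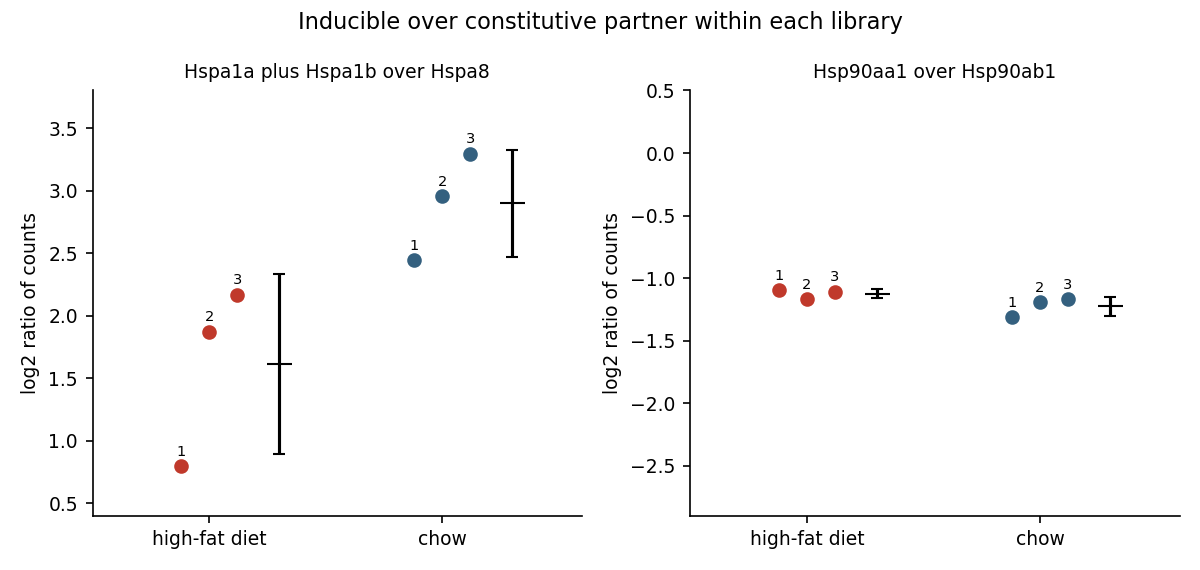
Log2 ratio of counts of the inducible over the constitutive partner in each library, HFD left of chow, on axes of equal length, with mean and SD of 3 libraries. The Hsp70 ratio averages 1.61 on HFD and 2.90 on chow, and the Hsp90 ratio -1.12 on HFD and -1.22 on chow.

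Taken by class, the 6 inducible genes summed to 4334, 8732 and 7043 CPM in HFD libraries 1 to 3 and to 8819, 13147 and 16469.5 CPM in chow libraries 1 to 3. This sum was mostly Hspa1a and Hspa1b, and the diets did not overlap. The other 4 inducible genes summed to 2316, 3320 and 2202 CPM in HFD libraries 1 to 3 and to 2176, 3169 and 3669 CPM in chow libraries 1 to 3, and these sums overlapped. The 2 constitutive genes summed to 3638, 4180 and 3021 CPM in HFD libraries 1 to 3 and to 3539, 3553 and 3642 CPM in chow libraries 1 to 3. All 10 genes took 0.843%, 1.25% and 1.04% of all counts in HFD libraries 1 to 3 and 1.25%, 1.70% and 2.00% in chow libraries 1 to 3. The median log2 fold change was -0.72 over the 6 inducible genes and -0.04 over all 10, beside -0.01 over all genes tested. The inducible median lies between 3 genes from -1.59 to -1.26 and 3 genes from -0.18 to 0.14.

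Levels were compared between genes per length. In CPM per kilobase of the longest coding transcript, the HFD means were highest for Hsp90ab1 (942 ± 155), followed by Hspa1b (767 ± 336), Hspa1a (654 ± 295), Hspa8 (518 ± 88.2), Hsp90aa1 (331 ± 49.9), Hspb1 (326 ± 88.5) and Hsph1 (277 ± 112). Hspd1 (63.7 ± 16.0), Dnajb1 (56.7 ± 22.005) and Hsf1 (19.1 ± 4.04) were the lowest. On chow the pair of Hspa1b (1830 ± 609) and Hspa1a (1577 ± 465) stood first, followed by Hsp90ab1 (915 ± 15.1), Hspa8 (531 ± 18.3), Hspb1 (335 ± 131), Hsph1 (314 ± 101) and Hsp90aa1 (301.1 ± 16.3). Dnajb1 (171 ± 68.0), Hspd1 (61.6 ± 21.4) and Hsf1 (19.5 ± 4.24) came last (SD, n = 3 each). Hspb1, Hsph1 and Hsp90aa1 could not be ordered beyond their spread in either diet. At the top on HFD the order of Hsp90ab1 (983, 1072 and 771 in libraries 1 to 3) and Hspa1b (384, 1013 and 903) turned in library 3. Hspd1 (67.0, 77.9 and 46.3) and Dnajb1 (33.5, 59.6 and 77.2) also changed places on HFD in library 3. Hspa1b lay above Hspa1a per length in all 6 libraries, with the uncertainty that their shared reads bring.

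The genes also differed in how much they varied among libraries of 1 diet. On chow the coefficient of variation was 1.64% for Hsp90ab1, 3.45% for Hspa8 and 5.40% for Hsp90aa1, against 29.5% for Hspa1a, 33.3% for Hspa1b, 39.8% for Dnajb1 and 39.2% for Hspb1. On HFD it was 16.4% for Hsp90ab1, 17.0% for Hspa8 and 15.0% for Hsp90aa1, against 45.1% for Hspa1a, 43.8% for Hspa1b, 38.8% for Dnajb1 and 27.2% for Hspb1. Chow library 1 had the lowest chow level of 8 of the 10 genes, the exceptions being Hsp90ab1 and Hsf1.

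Across the 6 libraries the log2 levels formed sets that varied together. Pearson's r, given as a description over 6 libraries that share their scaling and the split by diet, was 0.999 between Hspa1a and Hspa1b and 0.97 between Hspa1a and Dnajb1. The part of shared reads in the r of Hspa1a and Hspa1b was not tested. Pearson's r was 0.92 between Hsph1 and Hspb1, 0.93 between Hspb1 and Hspd1 and 0.89 between Hsp90aa1 and Hsp90ab1. Between Hspa1a and the rest it was lower, at 0.62 with Hsph1, 0.35 with Hspb1, -0.38 with Hsp90aa1 and -0.41 with Hsf1.

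**Figure D4:**
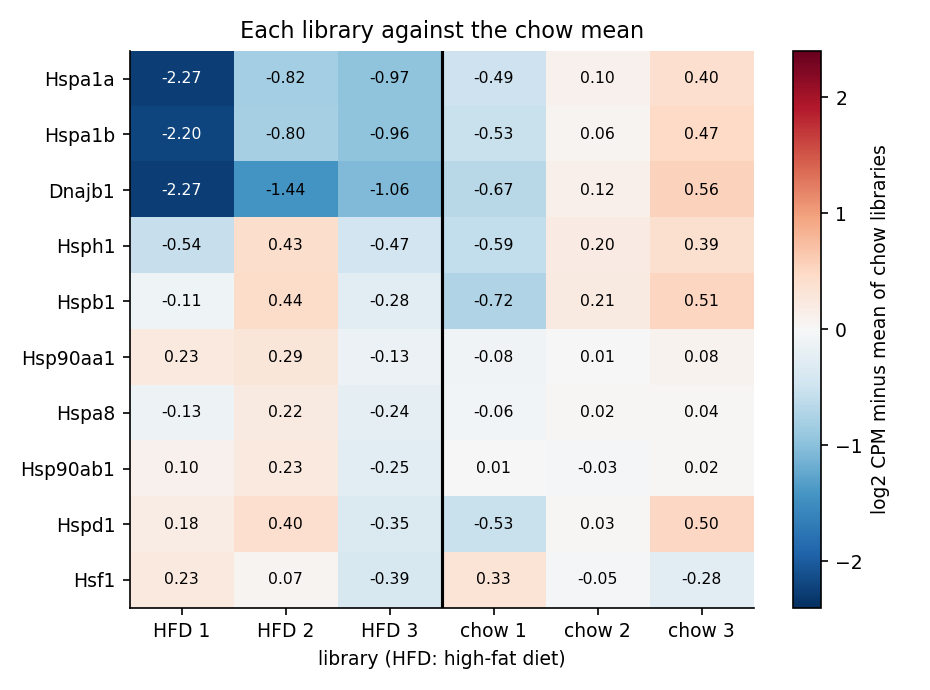
Log2 CPM of each gene in each library minus the mean of the chow libraries, HFD left of chow. Hspa1a, Hspa1b and Dnajb1 are lowest in HFD library 1 (-2.27, -2.20 and -2.27), while Hsp90aa1, Hsp90ab1, Hspd1 and Hsf1 are above 0 there.

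Of 7045 other genes with a symbol and a mean of at least 10 CPM, the 5 whose log2 levels were most like Hspa1a over the 6 libraries were Rnu3a (r = 0.99), a U3 small nucleolar RNA, Reck (r = 0.99), a membrane inhibitor of matrix proteases, Plekhg1 (r = 0.99), Fbxl14 (r = 0.99), an adaptor of a ubiquitin ligase, and Hspa1l (r = 0.99). With so few libraries 2.57% of these genes had an r above 0.9. Hspa1l, an Hsp70 gene known mainly from testis, was at 23.0, 93.6 and 84.8 CPM in HFD libraries 1 to 3 and at 96.1, 155 and 205 CPM in chow libraries 1 to 3. Of the windows of Hspa1a 5.88% also occur in Hspa1l, and the part of shared reads in its level was not tested. The choice of these 5 genes by their likeness to Hspa1a also fixes their direction between the diets, so no test of it is given.

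Partner proteins were taken from lists drawn up by function. In edgeR 0 of 21 Hsp70 partners passed, while 1 lay lower and 1 higher at an unadjusted p under 0.05. DESeq2 called 1 of them, and so did limma-voom. The median log2 fold change was -0.01. Dnajb4, a J-domain protein close to Dnajb1, was at 230, 287 and 281 CPM in HFD libraries 1 to 3, against 407, 482 and 443 CPM in chow libraries 1 to 3. Its diets did not overlap (log2 fold change -0.74, SE 0.17, edgeR adjusted p = 0.125, DESeq2 adjusted p = 0.00175, limma-voom adjusted p = 0.0184). Hspa4, an Hsp110 exchange factor like Hsph1, lay the other way, at 522, 405 and 320 CPM on HFD and 227, 261 and 288 CPM on chow (log2 fold change 0.69, SE 0.20, edgeR adjusted p = 0.279). Bag3, which links Hsp70 to autophagy and is a target of Hsf1, was at 380, 621 and 476 CPM on HFD and 544, 618 and 661 CPM on chow, and the diets overlapped.

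Of 14 Hsp90 cochaperones, 0 passed in edgeR, DESeq2 or limma-voom and 0 had an unadjusted p under 0.05, with a median of 0.21. Stip1, the Hop protein that bridges Hsp70 and Hsp90, had a log2 fold change of 0.47 (SE 0.23, edgeR adjusted p = 0.695), Fkbp4, an immunophilin of steroid receptors, one of 0.29 (SE 0.26), and Tomm34 one of 0.43 (SE 0.37). The 8 subunits of the CCT chaperonin, which folds actin and tubulin, had a median of -0.18, from -0.41 for Cct4 to 0.11 for Cct5, and 0 had an unadjusted p under 0.05 or passed by any of the 3 tools. Cct7 was at -0.34 (SE 0.29) and Tcp1 at -0.26 (SE 0.29).

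Among other small heat-shock proteins 4 of 6 could be tested. Cryab, the alpha-B crystallin, was at 104, 154 and 81.1 CPM on HFD and 150, 151 and 231 CPM on chow (log2 fold change -0.65, SE 0.26, edgeR adjusted p = 0.537). Hspb6, also called Hsp20, was at 1.56, 0.767 and 0.701 CPM on HFD and 8.60, 6.41 and 15.8 CPM on chow, without overlap (log2 fold change -3.34, SE 1.15, edgeR adjusted p = 0.409). It passed in DESeq2 (adjusted p = 0.0347) and not in limma-voom (adjusted p = 0.521). Hspb8 had a log2 fold change of 0.53 (SE 0.89), whose sign turned in limma-voom. In edgeR 0 of the 4 passed and 2 were lower at an unadjusted p under 0.05.

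Of 10 mitochondrial chaperones and proteases that could be tested out of 11, 0 passed by any of the 3 tools and 0 had an unadjusted p under 0.05 (median 0.20). Hspe1, the lid of the Hsp60 chamber, had a log2 fold change of -0.67 (SE 0.39, edgeR adjusted p = 0.785), Dnaja3, a mitochondrial J-domain protein, one of -1.06 (SE 0.70), and Lonp1, a matrix protease, one of 0.54 (SE 0.39). Of the other heat-shock factor genes Hsf2 was at 28.6 ± 2.43 CPM on HFD and 44.4 ± 18.0 CPM on chow (SD, n = 3 each, edgeR adjusted p = 0.794). Hsbp1, whose protein binds heat-shock factor trimers, was at 23.7 ± 5.55 CPM on HFD and 16.3 ± 12.9 CPM on chow (SD, n = 3 each, edgeR adjusted p = 0.961), and Hsf4 and Hsf5 were too low to be tested.

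Chaperones of the endoplasmic reticulum, which answer mainly to the unfolded protein response, numbered 12, and the median of their log2 fold changes was 0.50, beside -0.01 over all genes tested. At an unadjusted p under 0.05, 8 were higher and 0 lower on HFD, against 3.7% higher among all genes, and 187 of 1681 higher among those of at least 100 CPM. In edgeR, DESeq2 and limma-voom 0 of the 12 passed. Without overlap, 3 of the 12 lay higher and 1 lower on HFD, against 979 higher and 1039 lower of 13202 genes tested. The 12 genes summed to 5509, 5334 and 3931 CPM in HFD libraries 1 to 3. In chow libraries 1 to 3 they summed to 4621, 4355 and 5099 CPM, so the diets overlapped. Canx (calnexin), Hsp90b1 (Grp94) and Dnajc3 (P58IPK) had log2 fold changes of 0.50 (SE 0.18), 0.58 (SE 0.21) and 0.50 (SE 0.19), with edgeR adjusted p of 0.435, 0.442 and 0.505. The diets did not overlap for Canx. For Hsp90b1 and Dnajc3 they did, with HFD library 3 below chow library 3 (510 against 581 CPM and 280 against 304 CPM). Hspa5, the Hsp70 of this compartment known as BiP, was 1 of 2 with a negative value and is named after its values were seen. It was at 2599, 2446 and 1918 CPM on HFD and 2855, 2634 and 3058 CPM on chow (log2 fold change -0.30, SE 0.14).

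Immediate early genes, which cells switch on within minutes of a stimulus, were lower beside Hspa1a, Hspa1b and Dnajb1. Of 14 listed genes 8 fell in edgeR and 0 rose, against 0.167% of all genes that fell, and the median log2 fold change was -1.18. The 8 that fell included Nr4a1, at 155, 195 and 259 CPM on HFD and 596, 844 and 765 CPM on chow (edgeR adjusted p = 0.00297), and Fos, at 922, 506 and 1031 CPM on HFD and 2348, 2310 and 2232 CPM on chow (edgeR adjusted p = 0.00947). The others were Egr1, Btg2, Zfp36, Atf3, Junb and Jun, with log2 fold changes from -1.67 to -1.11. The count depended on single libraries. It was 4 without HFD library 2, 5 without chow library 1, 4 without chow library 2, 3 without chow library 3, and 0 without both HFD library 1 and chow library 3. Nr4a1, Egr1 and Btg2 passed with any 1 library left out, whereas Junb and Jun did not pass with library totals as the only scaling. The 14 genes summed to 7195, 4808 and 8791 CPM in HFD libraries 1 to 3, and to 15459, 16444 and 14890 CPM in chow libraries 1 to 3. HFD library 2 had the lowest of these sums and the highest Hspa1a level of its diet. HFD library 3 had the highest sum of its diet and the highest Dnajb1 level. Within HFD, Nr4a1 was lowest in library 1, as Hspa1a was, and Fos in library 2. Within chow the coefficient of variation of the 14 genes ran from 0.229% to 21.3%, with a median of 11.9%, and that of Hspa1a was 29.5%. Within HFD it ran from 8.38% (Egr2) to 54.7% (Dusp1), and that of Hspa1a was 45.1%. This list was known to be lower from earlier results on the same libraries, and its part in the heat-shock values was not tested.

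**Figure D5:**
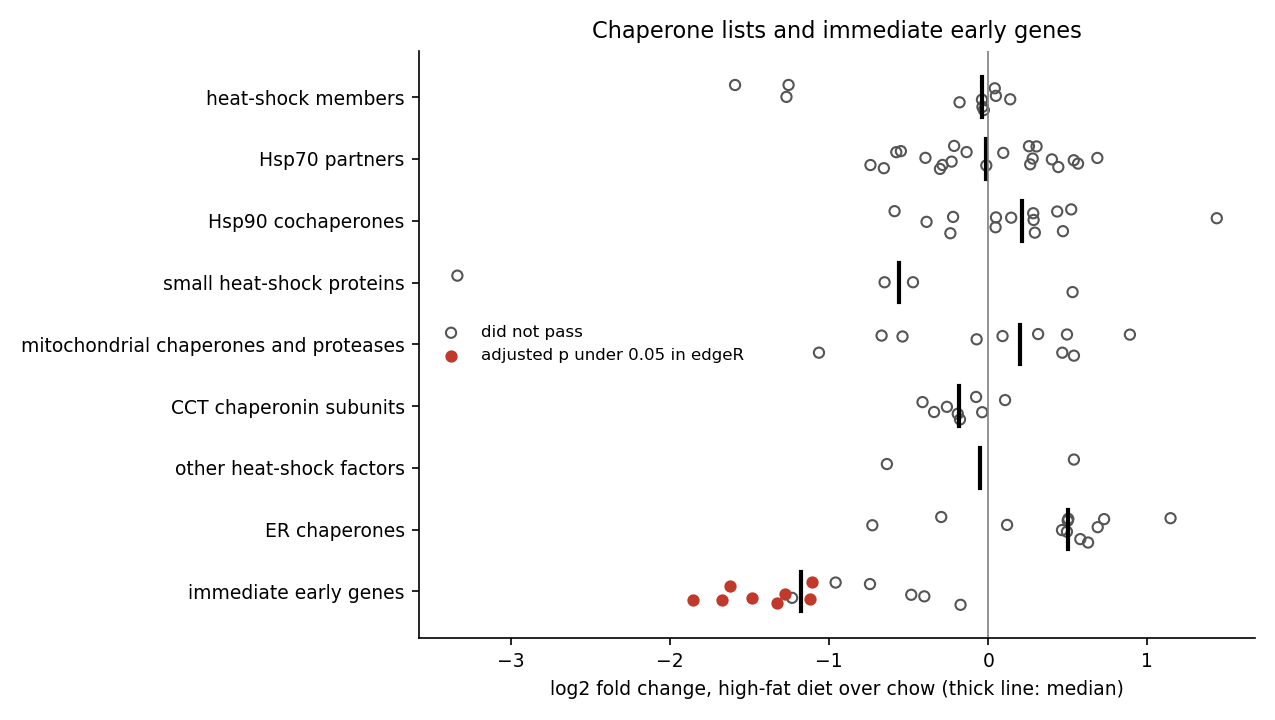
Log2 fold change, HFD over chow, of each tested gene of the heat-shock members, 7 chaperone and heat-shock factor lists and the immediate early genes. Filled points passed an adjusted p of 0.05 in edgeR, which only immediate early genes did among these lists, and thick lines give the medians.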

How the data were processed

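RNA was taken from sorted satellite cells, with an RNA integrity number of 8.5 to 9.4, depleted of ribosomal RNA and sequenced as 75-base single reads, per the labels' protocols. The authors deposited whole-number counts per Entrez gene ID, 1 file per library. Bowtie2, featureCounts, GRCm38 and mm10 are named in the submitters' processing notes, and their versions and settings are not given in the sources used here. Symbols came from RefSeq (25275 of 27179 IDs) and GENCODE (18), and 1886 IDs had none.

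Counts were filtered with filterByExpr (minimum 10), TMM-scaled and fitted with edgeR 4.0.16 in R 4.3.3 (quasi-likelihood test, two-sided, diet as the only term), and p-values were Benjamini-Hochberg adjusted over 13202 genes. Fold changes are HFD over chow, with 95% intervals from the fit. limma 3.58.1 (voom), DESeq2 1.42.0, other scalings and filters, a replicate block, leaving out each library and summing Hspa1a with Hspa1b were alternatives. Leaving out 2 libraries together was chosen after seeing the data. The scripts were tested on simulated data. Pair ratios used exact permutation tests. A count of 3 equals 0.165 to 0.201 CPM, which covers counting error only. Levels per length used the longest coding transcript of GENCODE. Promoter windows are from RefSeq GRCm38.p6. The 10 genes are always named, and of each list those that passed or up to 3 with the smallest p. Members and lists were chosen with earlier results of these data known.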

Additional observations from a re-analysis of the deposited data

How the results depend on the processing

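Over all genes 34 were called, against 163 with no filter on low counts, 198 with DESeq2, 99 with limma-voom, 9 to 44 when 1 library was left out, and 1 without HFD library 1 and chow library 3. Of the 10 heat-shock genes 0 were called, against 3 with no filter, 1 with DESeq2, 3 with limma-voom and 0 to 1 with 1 library left out. With the replicate number as a block 45 of 13202 genes were called, among them 3 of the 10 (Hspa1a and Hspa1b at an edgeR adjusted p of 0.00179, Dnajb1 at 0.000699). No label shows that equal replicate numbers pair the libraries. Over all genes tested, the deviations of same-numbered libraries correlated at 0.0245, 0.0346 and -0.0261, against -0.0556 to 0.0332 for other numbers. A correlation over all genes cannot decide whether these 3 genes are paired. Dnajb1 rose with the replicate number in both diets, and Hspa1a and Hspa1b were lowest in library 1 of each diet. Whether the block is apt was not tested. With 1 library left out the log2 fold changes ran from -1.53 to -0.93 for Hspa1a, -1.51 to -0.92 for Hspa1b and -1.88 to -1.28 for Dnajb1, and the pair differences from -1.56 to -0.88 (Hsp70) and 0.06 to 0.13 (Hsp90). Values near 0 turned sign. With 1 library left out they ran from -0.19 to 0.057 for Hspa8, -0.56 to 0.025 for Hsph1, -0.065 to 0.17 for Hsp90ab1, -0.31 to 0.23 for Hspb1, -0.17 to 0.33 for Hspd1, -0.16 to 0.16 for Hsf1, -0.50 to 1.02 for Hspb8, -0.47 to 0.037 for Tcp1 and -0.24 to 0.080 for the median of the 10. Without both libraries they were 0.038 for Hspa8, 0.20 for Hsph1, 0.31 for Hspb1, -0.55 for Hspb8, 0.0091 for Dnaja3 and 0.034 for the median. With the block Hspb1 was at 0.018 and Hspb8 at -0.016, and with limma-voom Hspb8 was at -0.15. The cause was not tested. With 3 libraries per diet, the intervals of Hspb1, Hspd1 and Hsf1 span 0.647 to 1.46-fold, 0.692 to 1.54-fold and 0.592 to 1.63-fold.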
